A study of Rattus norvegicus with 12 samples.

Results

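The effect of estradiol (E2) on hepatic RNA in the presence of growth hormone (GH) was examined by setting the 4 TXOXE2GH arrays against the 4 TXOXGH arrays, which are 8 of the 12 arrays of the series. All animals were adult male Sprague-Dawley rats, 3 months of age, made hypothyroid with methimazole (MMI, 0.05% in the drinking water for 5 weeks from postnatal day 59) and castrated 2 weeks after MMI began, and these rats are called TXOX. TXOXE2GH rats were given E2 benzoate at 50 µg/kg for 20 days from 4 days after castration, followed by 7 days of E2 together with GH at 0.3 mg/kg per day. TXOXGH rats were given vehicle for 20 days, followed by 7 days of vehicle and the same dose of GH. TXOXE2 rats were given E2 for 27 days without GH. Their arrays give side by side values and enter a flagged result below. They also enter the estimate of spread in the limma comparison of independent groups. Livers were taken 12 hours after the last GH and 24 hours after the last E2 injection, and each array was taken to carry one treated animal in Cy5 and TXOX liver in Cy3. The values are read as log2 ratios of treatment to TXOX. This rests on the channel characteristics and the series design, since the source field names the treated group for both channels. In the difference between both groups of arrays a constant effect of the dye cancels.

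GH acts on hepatocytes through its receptor, the kinase JAK2 and the transcription factor STAT5, and it sets much of the sex-dependent expression of steroid-metabolising enzymes in the rat liver. E2 acts on the liver through the estrogen receptor alpha and, in other settings, is known to restrain GH signalling through induction of SOCS proteins. The TXOX rat has little GH and E2 of its own, so that each hormone can be returned alone or with the other. The files do not pair the probes of this array, which carries long oligonucleotides, with genes, so pathways and cell type markers were not analysed here and the liver identity of the samples was not checked against markers. The results below are given for probes, and 4 of these are named by their identifiers.

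The TXOXE2GH arrays were dimmer than the TXOXGH arrays. On TXOXE2GH arrays 1 to 4, 12878, 12770, 14051 and 10657 spots with a probe lay above local background in at least 1 channel, against 13978, 13953, 16669 and 15953 on TXOXGH arrays 1 to 4. The number was lower on the TXOXE2GH array in each of the 4 same-numbered pairs, although the groups overlapped (exact permutation p = 0.0857 without pairs and 0.125 within pairs). Cy5 foreground over local background had a median of 1.73 ± 0.126 on TXOXE2GH arrays and 2.16 ± 0.424 on TXOXGH arrays (SD, n = 4 each), and in Cy3 it was 1.85 ± 0.155 and 2.24 ± 0.0717. Neither ratio overlapped between the groups, although the gap in Cy5 was narrow (at most 1.81 on TXOXE2GH and at least 1.82 on TXOXGH arrays), and the exact two-sided permutation test over arrays gave p = 0.0286 for each, the smallest that 4 against 4 arrays allow (adjusted p = 0.0762 over 8 measures of the arrays). Within same-numbered pairs the exact permutation test gave p = 0.125 for each ratio (adjusted p = 0.25). The spread of the log2 ratios over probes with a value on all 8 arrays was 0.422 ± 0.0275 on TXOXE2GH and 0.400 ± 0.0418 on TXOXGH arrays (exact permutation p = 0.486). The part of the dimmer signal in the results below was not tested, apart from the restriction to bright probes given with them.

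**Figure D1:**
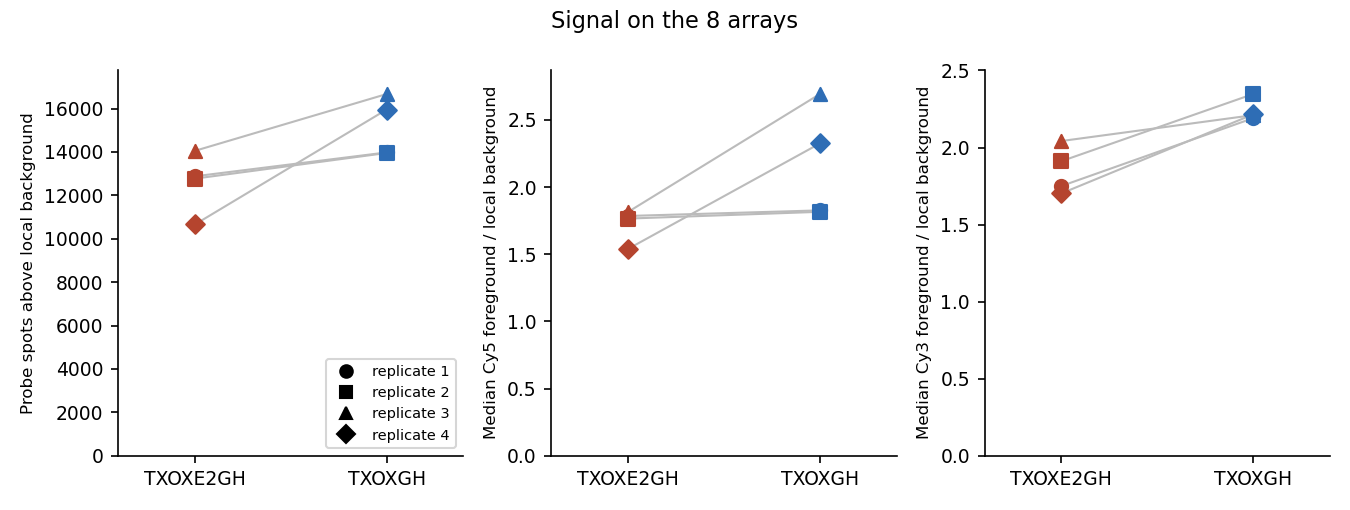
Number of probe spots above local background (left), and median of foreground over local background in Cy5 (middle) and Cy3 (right), on each TXOXE2GH and TXOXGH array. Marker shapes give the replicate number and grey lines join arrays of the same number; each line runs higher on the TXOXGH side, with 10657 to 14051 spots on TXOXE2GH and 13953 to 16669 on TXOXGH arrays.

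Taken as independent groups, TXOXE2GH and TXOXGH livers gave no probe past the threshold. Of the 26962 probes on the array, 18695 had a value on at least 3 arrays of each group and were tested, and limma called 0 of them (0%) when an adjusted p under 0.05 was required together with a log2 difference of 0.58 or more in size. Without the fold threshold the count was also 0, and the smallest adjusted p of limma was 0.0812. A SAM between these groups, with the fold threshold kept, also called 0 probes. The study applied SAM to each treatment against TXOX and as a multiclass analysis. The latter reported genes regulated by GH whose means differed from those with E2 or E2 plus GH, and it was not repeated here. The study also reported smaller average changes of its GH-regulated genes when E2 was present. By qPCR it reported several GH-induced mRNAs, though not all, to be lower with E2 added. Neither of these was repeated here. At an unadjusted p under 0.05, 1111 probes (5.94%) stood out, 464 higher (2.48%) and 647 lower (3.46%) in TXOXE2GH. In whole liver, fewer cells of a type and less RNA per cell cannot be told apart in any of these differences.

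The differences were small for most probes. The median difference was −0.01, and the middle 50% of probes lay between −0.15 and 0.13 on the log2 scale. A difference of at least 0.58 in size was measured for 440 probes (2.35%), of which 165 were higher and 275 lower in TXOXE2GH. The median standard error was 0.19, which gives a 95% interval reaching 0.40 to each side of the difference. For 10124 probes the whole 95% interval lay within the threshold of 0.58.

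Arrays of the same replicate number deviated together in both groups. Over the 16474 probes with a value on all 8 arrays, deviations from the group means correlated by 0.29, 0.36, 0.43 and 0.31 between TXOXE2GH and TXOXGH arrays 1 to 4 of the same number. Between arrays of different numbers the 12 correlations lay between −0.28 and 0.00. Probes are not independent replicates, so these values are descriptive, and the deviations in a group sum to 0, which lowers the values between different numbers. What arrays of the same number shared is not stated in the labels, so the pairing rests on the data alone.

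**Figure D2:**
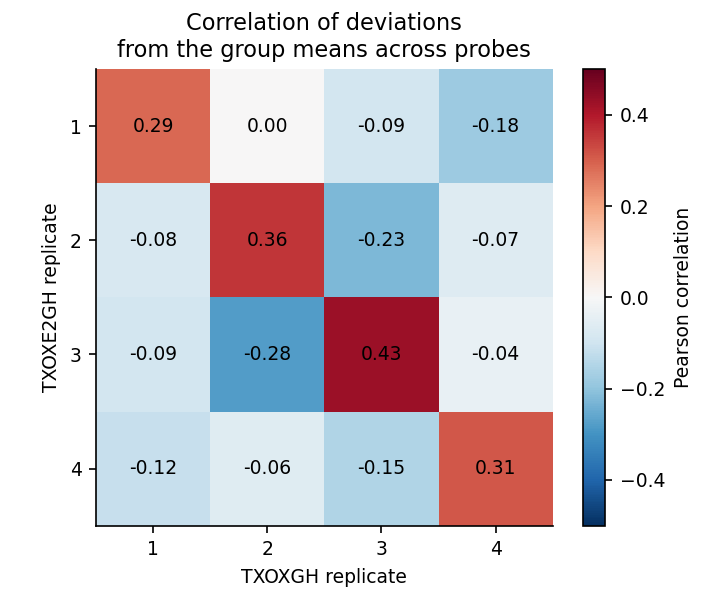
Pearson correlation, across 16474 probes, of the deviations of each TXOXE2GH array (rows, replicates 1 to 4) and each TXOXGH array (columns, replicates 1 to 4) from the mean of its own group. The diagonal holds the same-numbered arrays and ranges over 0.29 to 0.43, while the other cells reach at most 0.00.

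Within same-numbered pairs, 75 of the 18695 probes (0.401%) passed the same thresholds in limma. Of these, 22 (0.118%) were higher and 53 (0.283%) were lower in TXOXE2GH than in TXOXGH liver, and none was added by leaving out the fold threshold. The median difference was 0.96 among the higher probes (range 0.71 to 1.59) and −0.89 among the lower ones (range −2.69 to −0.62), with median standard errors of 0.159 and 0.141. A difference of 2-fold or more was found for 11 higher and 19 lower probes. This result rests on the pairs and on the variance model: 0 probes were called on the same 8 arrays without the replicate block, 0 with a fixed block over all 12 arrays, 2 with paired SAM, 2 without a variance trend over intensity, and 18 with a random block on the 8 arrays. In the last 3 of these fits every called probe was lower in TXOXE2GH, and none of the 22 higher probes was called. Without pair 2 the count was 42, and without pairs 1, 3 and 4 it was 75, 76 and 50.

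All 75 probes had a value on the 8 arrays and the same sign in the 4 pairs, which was also the case for 3170 of the 16474 probes with 8 values (19.2%). The groups did not overlap for 38 of the 75 (50.7%), against 570 of the 16474 (3.46%), and 32 of these 38 were lower in TXOXE2GH (1.98% of all probes were lower without overlap, and 1.48% higher). An unadjusted p under 0.05 in the comparison without pairs was reached by 68 of the 75, against 1111 of 18695 tested probes (5.94%). Both comparisons use the same differences on the same arrays, which largely fixed this count. The lower probes differed by a median of −0.91, −0.89, −0.84 and −0.92 in pairs 1 to 4, which were close to each other. The higher probes differed by a median of 0.68, 0.85, 1.15 and 1.07, with the smallest value in pair 1. Since these pairs entered the test, these values describe the called probes and add no support to them.

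When the paired test was run on 3 pairs, the pair left out had not been used to choose probes. Without pair 1, 75 probes were called and 69 had the same sign in that pair, against 55.2% of all probes measured there. Without pair 2, 41 of 42 had the same sign, against 57.4% of all probes. For pair 4 the numbers were 44 of 50 against 57.7%. The exception was pair 3, with 54 of 76 against 54.3%. A difference of 0.58 or more in the same direction was seen in the pair left out for 39 of 75, 27 of 42, 37 of 76 and 32 of 50 in pairs 1 to 4. Among all probes the shares were 7.56%, 9.04%, 5.91% and 8.35%. All probes are not a like yardstick, since most of the 75 were bright, where standard errors were smaller, as given below. The TXOXE2GH array was also the dimmer one in every pair, the pair left out included. These counts are therefore descriptive.

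**Figure D3:**
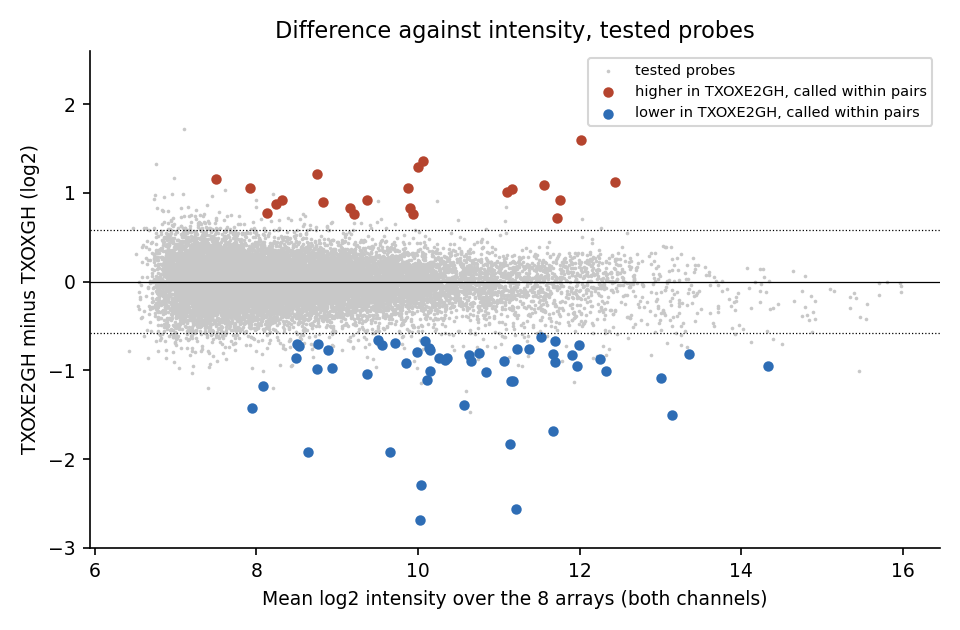
Difference TXOXE2GH minus TXOXGH (log2, vertical axis) against the mean log2 intensity over both channels of the 8 arrays (horizontal axis) for the 18695 tested probes in grey. Probes called within pairs are red (22 higher in TXOXE2GH) or blue (53 lower), and dotted lines mark 0.58. Of the called probes, 57 lie in the brightest of 4 equal groups of probes.

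Bright probes made up most of the called probes. In 4 groups of probes of increasing intensity, 1, 6, 11 and 57 probes were called within pairs, which were 0.0214%, 0.128%, 0.235% and 1.22% of the probes tested in each group. The median standard error within pairs was 0.222 in the dimmest and 0.128 in the brightest group. Of the 75, 64 had a foreground of at least 1.5 times the local background in both channels on all 8 arrays, as had 11243 of the tested probes (0.569% of them called). When only these 11243 probes were fitted, 96 were called, 25 higher and 71 lower. Saturated spots were seen for 2 of the 75, both lower in TXOXE2GH.

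Of the 75 called probes, 11 lay next to another called probe on the slide and 64 did not. They came from 36 of the 48 printed blocks, with at most 6 in one block, and the block took up 8.44% of the variance of the differences over all tested probes. The 11 neighbours lay in 5 blocks, and in each of these groups the direction was the same. Neither the number of neighbours nor the share of variance was set against what chance gives. The part of position in the calls was not tested, apart from the loess within blocks given below. Over the 8 arrays, neighbouring called probes correlated by 0.97 or more, against a median of 0.18 over 40723 neighbouring probe pairs, of which 0.211% reached that value. The called probes share a difference between the groups, which raises their correlation. Whether these neighbours measure the same transcript is not given in the files. When each printed block had a loess of its own, 75 probes were again called, 60 of them among the 75 above, and the comparison without pairs called 3 probes, all lower in TXOXE2GH.

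The largest fall among the bright and unsaturated probes called within pairs was that of probe Rn30018905. Its log2 ratios to TXOX were −1.61, −2.22, 0.56 and 0.57 on TXOXE2GH arrays 1 to 4, against 1.18, 1.99, 2.30 and 2.08 on TXOXGH arrays 1 to 4. All TXOXGH arrays lay above all TXOXE2GH arrays, and within TXOXE2GH the arrays split into 1 and 2, below TXOX, and 3 and 4, above it. The means were −0.67 ± 1.45 in TXOXE2GH and 1.89 ± 0.49 in TXOXGH (SD, n = 4 each), a difference of −2.56. The pairs differed by −2.79, −4.20, −1.74 and −1.51, with a standard error of 0.615 from these 4 values alone. The moderated standard error of limma, which draws on the other probes, was 0.319 within pairs (95% interval −3.25 to −1.87, which leaves out 3 of the 4 pairs, limma-adjusted p = 0.00539) and 0.554 without pairs (limma-adjusted p = 0.263).

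Probe Rn30018906, printed in another block, had much the same pattern. Its log2 ratios were −1.40, −1.90, −0.06 and 0.22 on TXOXE2GH arrays 1 to 4, against 1.10, 2.02, 1.48 and 1.43 on TXOXGH arrays 1 to 4. The groups again did not overlap, and TXOXE2GH arrays 1 and 2 were again the lowest. The pairs differed by −2.50, −3.92, −1.53 and −1.21, with a standard error of 0.609 from these values alone. The mean difference was −2.29, with a moderated standard error of 0.317 within pairs (95% interval −2.98 to −1.61, which leaves out 3 of the 4 pairs, limma-adjusted p = 0.00882) and 0.378 without them (limma-adjusted p = 0.0908). Over the 8 arrays both probes correlated by 0.978, a value that includes the difference between the groups.

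Probe Rn30024965 had the largest rise among the bright and unsaturated probes called within pairs. Its log2 ratios were −0.02, 0.83, −0.63 and 1.08 on TXOXE2GH arrays 1 to 4, against −0.93, −1.19, −2.12 and −0.86 on TXOXGH arrays 1 to 4. Every TXOXGH array was below TXOX and below every TXOXE2GH array, and array 3 was the lowest in both groups. The pairs differed by 0.91, 2.03, 1.49 and 1.94, with a standard error of 0.256 from these values alone. The mean difference was 1.59, with a moderated standard error of 0.17 within pairs (95% interval 1.22 to 1.96, which leaves out 2 of the 4 pairs, limma-adjusted p = 0.00147) and 0.355 without them (limma-adjusted p = 0.264).

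Probe Rn30012044 was the next largest rise among the called, bright and unsaturated probes, and it was far above TXOX in both groups. Its Cy3 signal, taken as TXOX, was weak, at 1.8 to 5.4 times local background on TXOXE2GH and 1.9 to 5.0 on TXOXGH arrays. The size of its ratios therefore depends on weak values and on the background correction. Its log2 ratios were 3.76, 3.54, 4.75 and 3.58 on TXOXE2GH arrays 1 to 4, against 2.06, 2.34, 3.79 and 1.99 on TXOXGH arrays 1 to 4. Array 3 was the highest in both groups, and TXOXGH array 3 reached into the range of the TXOXE2GH arrays. The pairs differed by 1.70, 1.20, 0.96 and 1.59, with a standard error of 0.17 from these values alone. The mean difference was 1.36, with a moderated standard error of 0.139 within pairs (95% interval 1.06 to 1.66, which leaves out 2 of the 4 pairs, limma-adjusted p = 0.0011) and 0.341 without them (limma-adjusted p = 0.369). This difference was 1.47 with a normexp offset of 10 and 1.55 with background subtracted.

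**Figure D4:**
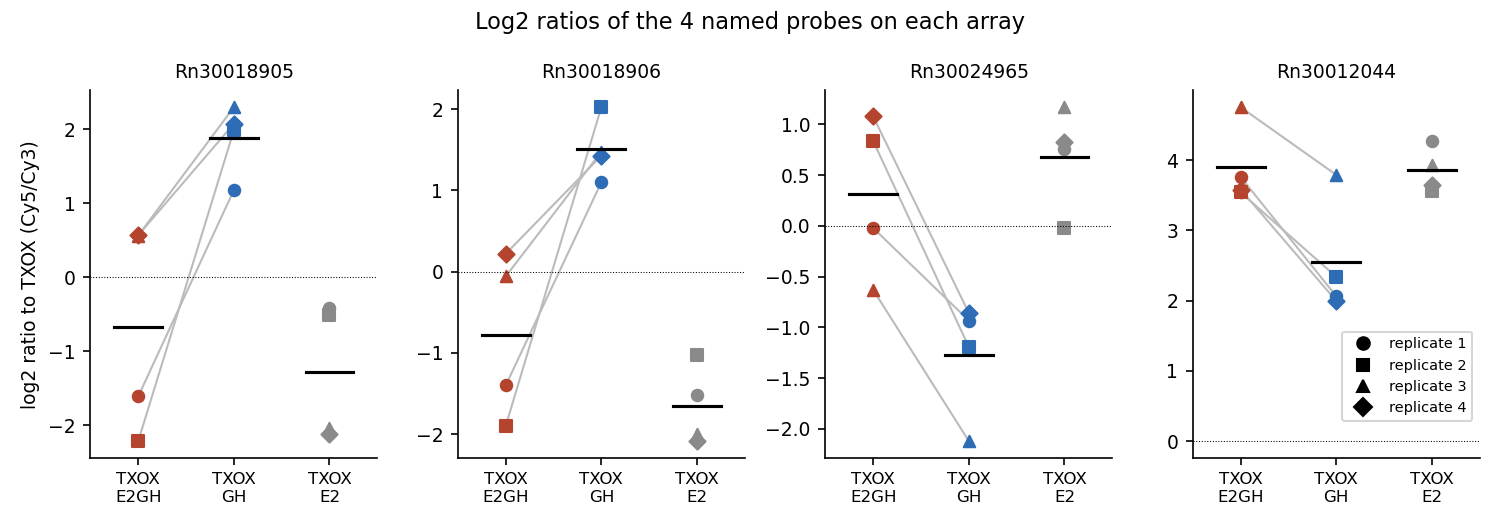
Log2 ratio to TXOX of the 4 named probes on each TXOXE2GH, TXOXGH and TXOXE2 array; black bars are group means, marker shapes the replicate number, and lines join same-numbered TXOXE2GH and TXOXGH arrays. All lines run the same way within a probe, and TXOXE2GH and TXOXGH arrays overlap only for Rn30012044.

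Among the probes with the most extreme moderated t values without pairs, chosen among bright, unsaturated probes with 1 sign in all pairs, the 5 lowest had differences of −0.87 to −2.29 and adjusted p values of limma from 0.0812 to 0.205. The 5 highest had differences of 0.71 to 1.59 and adjusted p values from 0.263 to 0.369. All 10 of these probes were among the 75, which the conditions on the same arrays largely fixed. The lowest adjusted p was shared by 2 probes. For one of them the TXOXE2GH arrays lay between −1.19 and −0.59 and the TXOXGH arrays between −0.10 and 0.19. For the other the TXOXE2GH arrays lay between −0.66 and −0.23 and the TXOXGH arrays between 0.25 and 0.68.

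Set against TXOX, the lower probes lay on either side of it. Among the 53, 25 had a mean below 0 in TXOXE2GH and above 0 in TXOXGH, 12 were above 0 in both and 16 were below 0 in both. Their median log2 ratio was −0.58 in TXOXE2GH and 0.44 in TXOXGH, and it was −0.27 in TXOXE2. Over all tested probes the medians were 0.00 in TXOXE2GH, 0.00 in TXOXGH and 0.01 in TXOXE2. By limma at the same thresholds, 3 of the 53 were called higher and 21 lower than TXOX in TXOXE2GH (1.59% and 2.21% of all probes), 18 higher and 2 lower in TXOXGH (2.08% and 1.33%), and 4 higher and 19 lower in TXOXE2 (3.1% and 3.14%). These comparisons share the TXOX group, the dye on each array is the same, and the 53 were chosen on the TXOXE2GH and TXOXGH values, so the counts describe the probes and test nothing.

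The higher probes included a set that stood above TXOX in both groups. Among the 22, 9 had a mean above 0 in TXOXE2GH and below 0 in TXOXGH, 10 were above 0 in both and 3 were below 0 in both. Their median log2 ratio was 0.41 in TXOXE2GH (range −0.42 to 3.91) and −0.50 in TXOXGH (range −1.28 to 2.55), and it was 0.73 in TXOXE2. Against TXOX, 10 of the 22 were called higher and 0 lower in TXOXE2GH (1.59% and 2.21% of all probes), 7 higher and 6 lower in TXOXGH (2.08% and 1.33%), and 12 higher and 0 lower in TXOXE2 (3.1% and 3.14%). The 22 were chosen in the same way as the 53, so these counts too are a description only. The named probes had mean ratios after E2 alone of −1.27 ± 0.94 for Rn30018905, −1.66 ± 0.49 for Rn30018906, 0.68 ± 0.51 for Rn30024965 and 3.85 ± 0.32 for Rn30012044 (SD, n = 4).

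**Figure D5:**
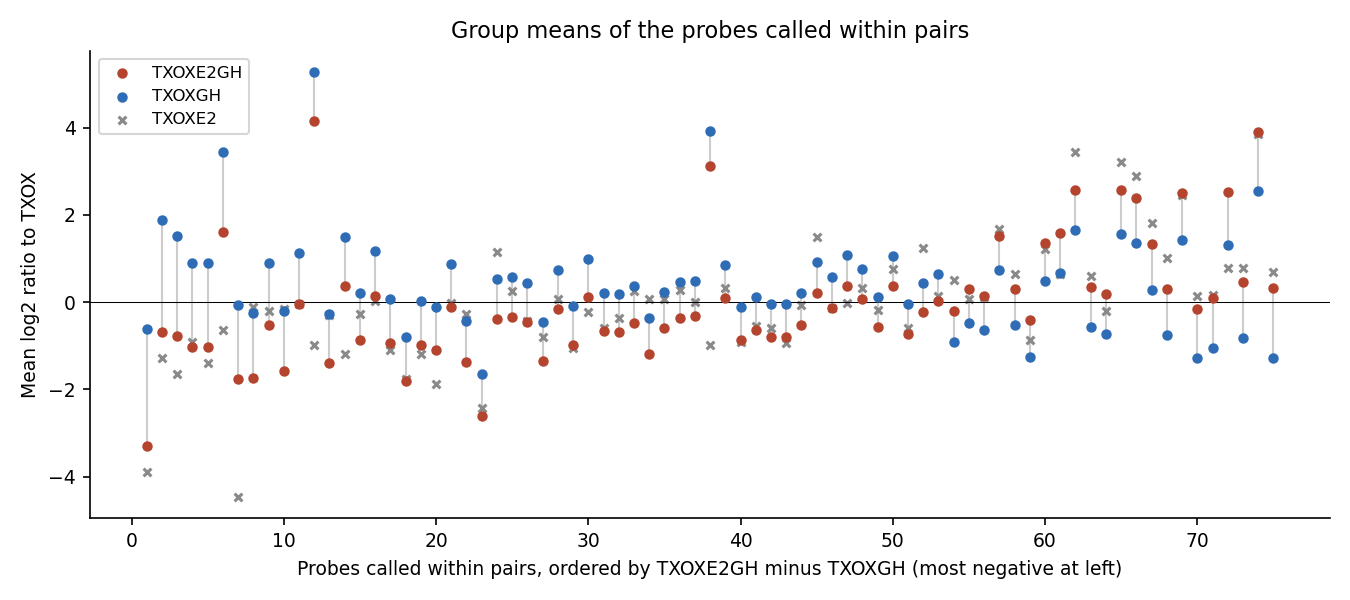
Mean log2 ratio to TXOX of the 75 probes called within pairs in TXOXE2GH (red), TXOXGH (blue) and TXOXE2 (grey crosses), ordered from the most negative to the most positive TXOXE2GH minus TXOXGH. The first 53 probes have the red point below the blue one, by −2.69 to −0.62, and the last 22 have it above, by 0.71 to 1.59.

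The spread between spots of 1 array was measured by 12 probes printed 12 times each. Within an array the SD of their log2 ratios was 0.202 to 0.596 (median 0.258), and between arrays of 1 group the SD of the array means was 0.0592 to 0.385 (median 0.153). The TXOXE2GH and TXOXGH means of these probes differed by −0.46 to 0.16. Most probes were printed as 1 spot, so their values carry the spread of a single spot on each array.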

How the data were processed

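Hepatic RNA (5 µg per sample) was hybridised on 12 two-colour oligonucleotide arrays, 4 per treatment, with the treated animal in Cy5 and TXOX in Cy3 by the channel characteristics and the series design (the source field names the treated group for both channels). The authors analysed the scanned images with GenePix Pro 6.0, and the deposited intensity values are medians of foreground and local background per spot, with the percent of pixels above background or saturated, a signal-to-noise score and the spot flags, as written by that software. The authors also deposited log2 ratios normalized by LOWESS, used as an alternative (22163 entries). Intensities were corrected with normexp (offset 50) and a global loess in limma 3.58.1 under R 4.3.3. Control, empty and marked-bad spots were left out (554 of 27648 spots were control or empty) and spots of 1 probe averaged. Spots above local background had over 50% of pixels above background plus 2 SD. The main model had a mean per treatment over 12 arrays (9 residual degrees of freedom), with a variance trend and Benjamini-Hochberg adjustment. The paired model had the replicate number as a fixed block on the 8 arrays, since each same-numbered pair correlated by over 0.1 (0.29 to 0.43, from the data and not from the labels). Replicates are individual animals per the methods of the study, and which TXOX animal was on which array is not stated. The number of arrays limits the precision.

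Probes named were the 2 largest rises and the 2 largest falls called within pairs, with 8 values, 1 sign in the 4 pairs, no spot with 20% or more saturated pixels, and foreground at least 1.5 times background in both channels (18 higher and 44 lower qualified). The groups, probes, lists and tests were chosen with earlier results of these data known. The comparison on pairs left out was added after seeing the values. The tests were tried on simulated data first. Gene lists were not used, since probes could not be matched to genes from the files.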

Additional observations from a re-analysis of the deposited data

Results flagged for a closer look

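For probe Rn30012044, the difference TXOXE2GH minus TXOXGH was smaller than the log2 ratio of TXOXE2 to TXOX. Its log2 ratio to TXOX was 3.91 in TXOXE2GH, 2.55 in TXOXGH and 3.85 in TXOXE2. The difference TXOXE2GH minus TXOXGH, less the ratio in TXOXE2, came to −2.49 (standard error 0.419, limma-adjusted p = 0.0171). An effect of the dye stays in this value with a negative sign. The Cy3 signal of this probe was weak, at 1.7 to 2.5 times local background on TXOXE2 arrays, which limits the precision of the value. Among all 17858 probes tested for it, 160 were called, 53 positive and 107 negative, and 10 of these were among the 75 probes called within pairs. The value tested contains the difference by which the 75 probes, Rn30012044 included, were chosen. The overlap is therefore largely fixed by that choice and describes the probes only.

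In 2 of 32 groups of 4 values, 1 value lay far from the other 3, and chance gives about 1 in 20. The median ratio of Cy3 foreground to background was highest on TXOXGH array 2 (2.35, against 2.19 to 2.21 on the other TXOXGH arrays). The SD of the log2 ratios over bright probes was lowest on TXOXGH array 1 (0.339, against 0.400 to 0.406 on the others).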

How the results depend on the processing

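Without pairs, 21 of 27 alternatives called 0 probes. The exceptions were 3 with loess within each printed block, 3 with scaling between arrays, 2 with the replicate number as a random block over 12 arrays, 75 with the fixed block on the 8 arrays, and 0 to 2 on leaving out each array (2 without TXOXE2GH replicate 4, 1 without replicate 3). Within pairs, 75 probes became 115 without background correction, 31 with background subtracted, 2 without a variance trend, 2 with paired SAM, 18 with a random replicate block (all lower, as with the 2 settings before), 0 with no replicate block, and 42 to 76 on leaving out each pair (42 without pair 2); the other settings gave 52 to 96, the last with bright probes only, an alternative chosen after seeing the data. With the authors' deposited ratios, 58 were called, 54 of them among the 75. The 4 named probes passed with the fixed replicate block on 8 arrays, the fit from which they were chosen, so this was fixed in advance. Rn30018906 also passed with scaling and on leaving out TXOXE2GH replicate 4. The direction of the 4 named probes was the same in all 24 alternatives each. The choice of probes with 1 sign in the 4 pairs largely fixed this, since every alternative used the same arrays or a part of them. The cause of these changes was not tested. The dimmest of the 4 intensity groups had the largest standard errors, which limits calls there.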
